A study of Mus musculus with 14 samples.

Results

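Cytosolic ribosomal protein genes encode the proteins of the large and small subunits of the ribosome that works in the cytoplasm. They were taken as the rows in both deposited tables whose symbol is Rpl or Rps followed by a number, with a closing a, x, l, l1 or al allowed, together with Rplp0, Rplp1, Rplp2 and Rpsa, and entries marked as pseudogenes were left out. This gave 81 genes, 50 of the large subunit and 31 of the small subunit, out of 13406 genes in the table of the doxycycline experiment, 14563 genes in the table of the Id2 experiment and 12678 genes in both.

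All 14 libraries came from primary mouse acute myeloid leukaemia cells of the strain labelled C57/BL6. The leukaemias arose in lethally irradiated congenic recipients of foetal liver cells that carried a Tet-Off vector with MLL-AF9 and a dsRED reporter, plus another vector with NRASG12D and the Tet-Off activator, and cells were collected from spleens of sick mice. MLL-AF9 is a fusion oncogene, and doxycycline switches the Tet-Off vector off. In the first experiment 4 libraries came from cells kept in doxycycline in vitro for 4 days and 4 from untreated cells, so every group, controls included, carried both oncogenes. In the other experiment the cells, with MLL-AF9 left on, were given a retrovirus with Id2 and GFP (n = 3) or with GFP alone (n = 3), and GFP-positive cells were sorted 2 days after transduction. Id2 is an inhibitor of E-protein transcription factors. No library had doxycycline without the Tet-Off MLL-AF9 vector, so the drug and the loss of MLL-AF9 cannot be told apart. Nothing in the labels gives each replicate an animal of its own, and p-values measure the spread between these libraries, which may be technical.

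A ribosome is built from ribosomal RNA and about equal amounts of each ribosomal protein, so cells make these proteins together, and their mRNAs are among the most abundant of a growing cell. Many of the mRNAs start with a C and a run of pyrimidines, the terminal oligopyrimidine (TOP) start, through which mTOR signalling and the binding protein LARP1 control their translation. Ribosome production is high in acute leukaemia cells, and some ribosomal proteins that are not built into ribosomes bind MDM2 and stabilise p53.

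The start regions of several members show this feature in the genome, and they are printed because the members below differ in how far they changed. Each line gives a mouse RefSeq start (GRCm38.p6) from 20 bases before the annotated start to 20 bases from it on, 5′ to 3′ on the gene's strand, and capitals mark a C with at least 4 pyrimidines after it that begins within 5 bases of the annotated start. The first 4 are among the members with the largest falls in doxycycline, and the next 5 are members that did not pass the test there. The last 3 are a gene with its paralog and a further paralog. The choice leaves out Rpl10a, also among the largest falls, whose annotated starts have no such run. It also leaves out Rpl34, which did not pass and whose annotated starts have one. Rpl22 and Rps27l each have another annotated start that is not printed. The printed Rpl22 start lies upstream of the gene as annotated in GENCODE M21, and its other start lies close to where that gene begins. Neither Rpl22 start has such a run.
Rpl28 (chr7:4792945-4792984, plus strand): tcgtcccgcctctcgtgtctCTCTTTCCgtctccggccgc
Rps2 (chr17:24720043-24720082, plus strand): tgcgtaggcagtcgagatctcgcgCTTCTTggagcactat
Rpl13a (chr7:45128726-45128765, minus strand): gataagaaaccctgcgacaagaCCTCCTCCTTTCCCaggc
Rps6 (chr4:86857348-86857387, minus strand): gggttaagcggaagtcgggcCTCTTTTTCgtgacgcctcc
Rpl18 (chr7:45718051-45718090, plus strand): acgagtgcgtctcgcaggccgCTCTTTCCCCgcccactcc
Rpl38 (chr11:114668560-114668599, plus strand): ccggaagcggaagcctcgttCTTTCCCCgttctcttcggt
Rps27 (chr3:90213629-90213668, minus strand): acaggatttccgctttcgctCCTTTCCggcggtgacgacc
Rpl23 (chr11:97782420-97782459, minus strand): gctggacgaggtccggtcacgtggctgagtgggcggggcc
Rpsa (chr9:120127746-120127785, plus strand): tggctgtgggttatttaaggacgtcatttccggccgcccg
Rpl22 (chr4:152324416-152324455, plus strand): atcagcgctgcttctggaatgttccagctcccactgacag
Rpl22l1 (chr3:28805488-28805527, plus strand): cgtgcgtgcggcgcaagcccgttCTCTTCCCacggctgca
Rps27l (chr9:66946066-66946105, plus strand): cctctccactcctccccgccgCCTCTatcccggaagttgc

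Of the 81 members, 61 had an entry in the RefSeq promoter table. A C followed by at least 4 pyrimidines stood exactly at an annotated start in 13 of them (21.3%), against 3.01% of the 27025 genes in that table. Within 5 bases either side of the start it was found in 29 (47.5%) against 21.2%. In the window from 250 bases before to 50 bases after the start, searched on both strands with overlaps allowed, CCGGAAG, a core of ETS factor sites, was in 39.3% of the members and 9.93% of all genes. GCCATNTT, a core of YY1 sites, was in 21.3% and 6.96%, and GGGCGG, an SP1 core, in 62.3% and 38.2%. CACGTG, the E-box that MYC binds, was in 9.84% and 8.09%, and TATAAA in 11.5% and 15.7%. A match of letters is a description and not a site in use.

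The genes that the vectors manipulate checked the labels. Among the partners of the fusion, Mllt3 (AF9) fell by 6.23 and Mll1 by 4.80 on the log2 scale in doxycycline, and Id2 rose by 5.18 in the Id2-GFP libraries. The libraries held 17922644 to 25959766 reads on tabled genes in the doxycycline experiment and 14051150 to 14948487 in the other. Of the 13 marker genes of myeloid leukaemia cells, 12 were in both tables. Of 5 B cell markers only Cd79b was listed, at 7.09 to 22.7 CPM (read counts relative to a scaled library size) in the doxycycline experiment and 8.26 to 23.4 CPM in the other, and none of the 6 T cell markers was. Erythroid markers were not listed in the doxycycline table, and in the Id2 table Hbb-b1 and Hba-a1 together gave 0.207 to 15.8 CPM. In the Id2 experiment control-GFP replicate 3 stood apart from the other 5 libraries in these genes, as given below, and results there are given with and without it.

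The first comparison asked how the ribosomal protein genes stood after 4 days without MLL-AF9 expression. After doxycycline, 56 of the 81 genes fell (69.1%) and none rose, while of all genes tested 33.8% fell and 31.3% rose (65.1% called in limma with Benjamini-Hochberg adjusted p under 0.05). The falls were small. The median log2 change of the members was −0.28, against −0.03 for all genes, and those that fell lay between −0.59 and −0.17. All 81 changes were below 0, against 52% of all genes, and with the offset of 0.5 reads in the deposited values they slightly understate the change of low genes. The groups did not overlap in 32 members, and in each of these the doxycycline libraries were the lower ones, as they were for 31.1% of all genes. Leaving out replicate 1 of both groups left 34 falls (42% of members, against 29.5% of all genes), and leaving out replicate 3 of both groups left 28 (34.6% against 28.6%), a share near that of all genes. Leaving out single libraries gave 45 to 71 falls among the members and 4146 to 4517 among all genes.

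**Figure D1:**
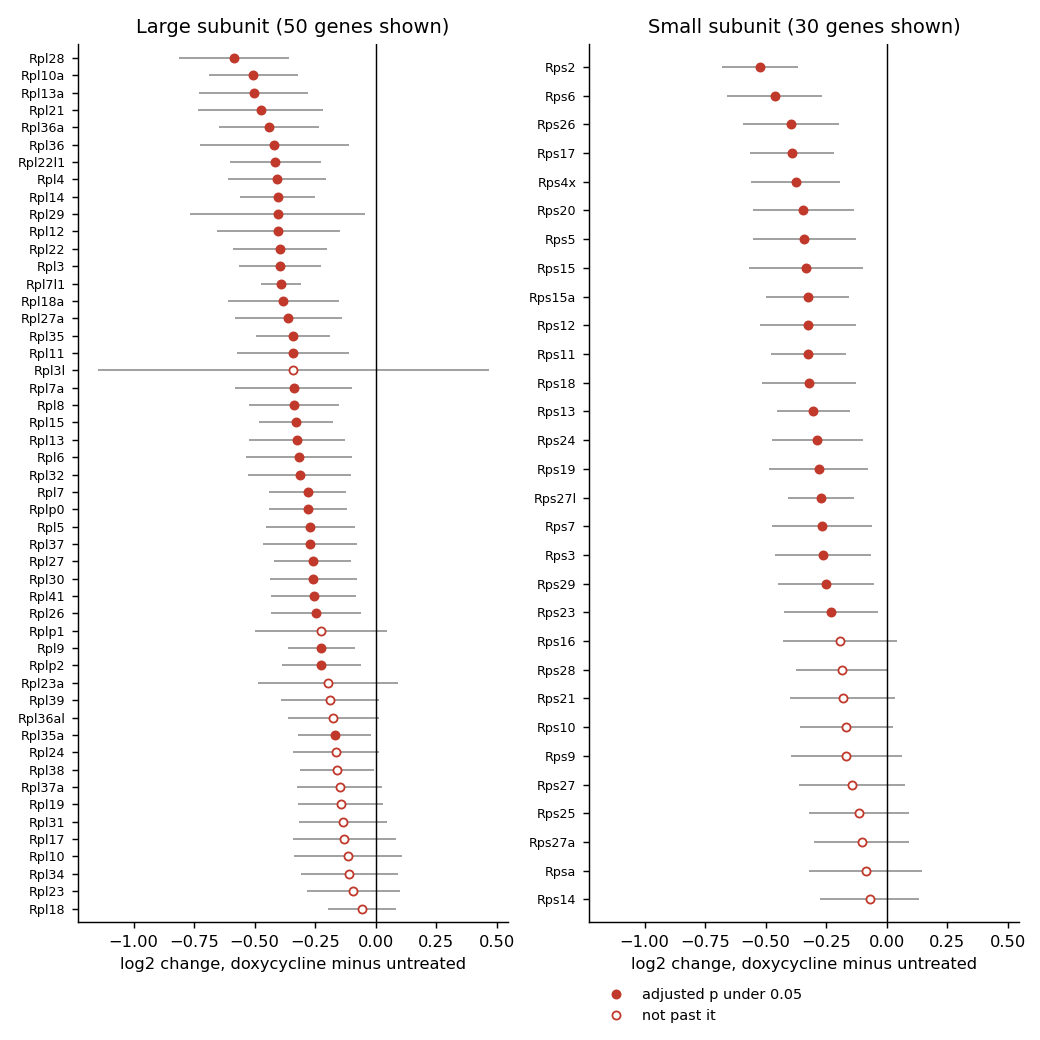
The horizontal axis is the log2 change (doxycycline minus untreated, n = 4 libraries each) of 80 of the 81 ribosomal protein genes, with bars for the 95% interval from limma, for the large subunit on the left and the small subunit on the right. All points lie left of 0, from −0.59 for Rpl28 to −0.06 for Rpl18, and filled points passed the test.

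In untreated cells the 81 genes took 3.21, 3.38, 3.41 and 2.98% of the reads on tabled genes in replicates 1 to 4, and in doxycycline they took 2.21, 2.69, 2.31 and 1.90%. Every doxycycline library lay below every untreated one, with means of 3.25 ± 0.194% and 2.28 ± 0.323% (SD, n = 4 each). In bulk RNA, fewer cells of a type and less RNA per cell cannot be told apart. A larger share of doxycycline libraries went to few genes: their 10 top genes held 6.57 to 9.15% of the total, and those of untreated libraries 3.53 to 4.07%. With such genes left out of each library's total the members' shares were 3.37 ± 0.198% and 2.46 ± 0.322%. The summed level of the myeloid markers also moved, from between 3870 and 4644 CPM without the drug to between 5842 and 6833 CPM with it. Of 6 stroma and endothelium markers only Pecam1, which myeloid cells also express, was listed, at 248.5 to 254 and 63.9 to 90.1 CPM. The part of these shifts in the result was not tested.

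**Figure D2:**
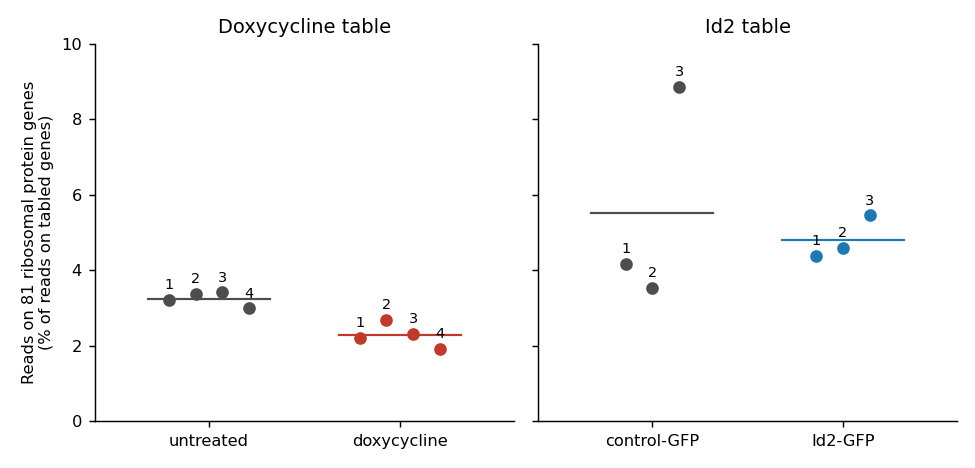
Each point is a library, numbered by replicate, and its height is the share of its reads (% of reads on tabled genes) that fell on the 81 ribosomal protein genes; lines are group means. The doxycycline libraries sit between 1.90 and 2.69%, below the untreated ones at 2.98 to 3.41%, and control-GFP replicate 3 at 8.86% lies above the other 5 libraries of the Id2 table.

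The size of the fall depended on the scaling of the libraries. The scaling factors behind the deposited values ranged from 1.07 to 1.101 without the drug and from 0.891 to 0.951 with it. With plain library totals the members' median was −0.52 and 80 of 81 fell, but the median of all genes then moved to −0.27 and 2702 genes rose and 6912 fell, in place of 4198 and 4535. A change to library totals shifts every gene by nearly the same amount. Relative to the median of all genes the members' median was therefore −0.25 under both scalings by construction. Under quantile normalization it was −0.33, where 72 members and 5227 of all genes fell. No member rose under any scaling tried.

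The labels join each doxycycline library to an untreated one. Of the 81 members, 63 were lower in doxycycline in all 4 pairs, 16 in 3 and 2 in 2. The median difference within a pair was −0.27, −0.12, −0.34 and −0.37 for replicates 1 to 4, while for all genes it lay between −0.04 and −0.01. Pair 2 was the shallowest, with 65 members lower, and in pair 3 all 81 were lower. Doxycycline replicate 4 was the lowest of the 8 libraries for 69 of 81 members, and the titles of its pair hold TRIMA1 where those of the other 3 hold TRIMA2, a tag that the labels do not explain. The titles of doxycycline replicates 1, 2 and 4 also end in -R, and those of doxycycline replicate 3 and of every untreated library do not. The labels do not explain this ending either. Whatever it marks cannot be told apart from the drug in those pairs. Without doxycycline replicate 4 the members' median was −0.23 with 47 falls, and 4287 of all genes fell. Spread was uneven between the groups. The median SD of a member was 0.08 log2 units in untreated cells and 0.17 in doxycycline, against 0.11 and 0.12 for all genes. With the pair as a block in the model, 66 members fell, of which 10 had not passed before, and no call was lost. In that model 69.6% of all genes were called and 36% fell.

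**Figure D3:**
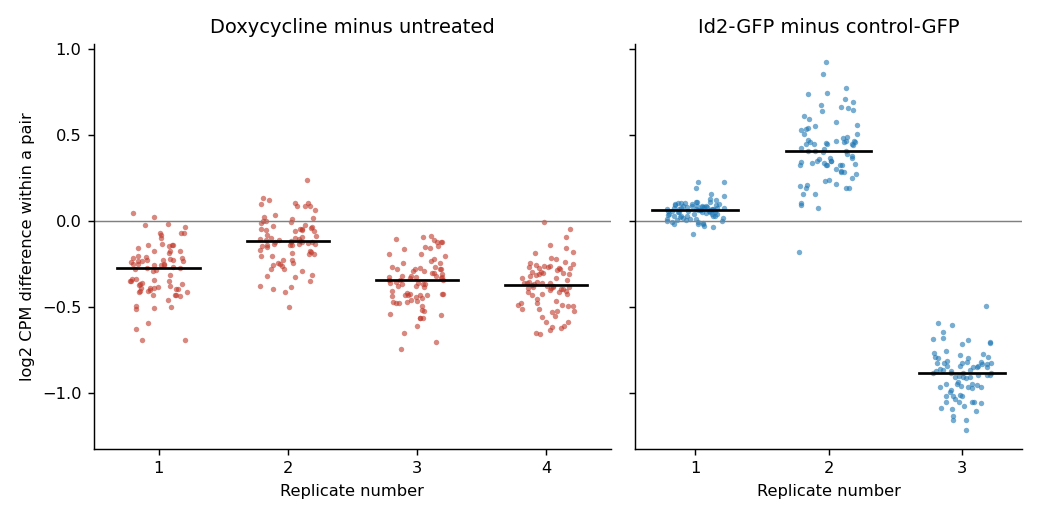
Each point is a ribosomal protein gene (80 shown, Rpl3l left out as too low), and its height is the log2 CPM difference within the pair of that replicate number, for doxycycline minus untreated on the left and Id2-GFP minus control-GFP on the right, with black lines for medians. Doxycycline medians lie below 0 in all 4 pairs, and the Id2 medians lie above 0 in pairs 1 and 2 and at about −0.88 in pair 3.

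Of the large subunit 35 of 50 members fell (70%), with a median of −0.30, and of the small subunit 21 of 31 (67.7%), with a median of −0.28. Of all genes tested 33.8% fell. A difference between the subunits was not tested.

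Rpl28, a large subunit protein, had the largest change. Its log2 CPM was 3.97, 4.06, 4.21 and 3.79 in untreated replicates 1 to 4 and 3.28, 3.56, 3.47 and 3.39 in doxycycline. All doxycycline libraries were lower than all untreated ones, and the change was −0.59 ± 0.10 (SE, adjusted p = 0.000674, n = 4 each). Rps2, a small subunit protein near the mRNA entry channel, came next. It was at 5.87, 5.85, 5.93 and 5.81 untreated and 5.25, 5.47, 5.45 and 5.20 in doxycycline, again without overlap, and fell by 0.52 ± 0.07 (adjusted p = 0.000126).

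Rpl10a had much higher CPM than Rpl28 and Rps2 in this experiment only. Rpl13a was above both in each experiment, and by far more in this one. Rpl28 and Rps2 are among the 23 members far lower here than in the Id2 table, as given below. The mean log2 CPM in the Id2 table was 9.13 for Rpl28, 9.49 for Rps2, 9.22 for Rpl10a and 10.4 for Rpl13a. Rpl10a was at 9.04, 9.09, 9.17 and 8.96 log2 CPM in untreated cells and 8.54, 8.77, 8.55 and 8.38 in doxycycline, which is 537 ± 31.6 against 380 ± 42.7 CPM (SD, n = 4 each). It fell by 0.51 ± 0.08 (adjusted p = 0.000445). Rpl13a, a protein that can also leave the ribosome to silence inflammatory mRNAs, was at 9.97, 10.08, 10.08 and 9.87 untreated and 9.46, 9.74, 9.54 and 9.26 in doxycycline. Its groups did not overlap and it fell by 0.50 ± 0.10 (adjusted p = 0.00157). Rps6, the substrate of the S6 kinases downstream of mTOR, was at 4.22, 4.33, 4.37 and 4.24 untreated and 3.81, 4.04, 3.81 and 3.65 in doxycycline, also without overlap, with a fall of 0.46 ± 0.09 (adjusted p = 0.00119). Rpl21 completes the 6 members with the largest changes, at −0.48 ± 0.11 (adjusted p = 0.00478).

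At the other end 6 members changed by at most 0.11 and did not pass: Rpl34, Rps27a, Rpl23, Rpsa, Rps14 and Rpl18. Rps14, whose loss of 1 copy impairs red cell formation in a myelodysplastic syndrome, was at 9.14, 9.24, 9.26 and 9.13 log2 CPM untreated and 9.12, 9.34, 9.16 and 8.87 in doxycycline. The groups overlapped, with doxycycline replicate 2 the highest of the 8 libraries and replicate 4 the lowest, and the change was −0.07 ± 0.09 (adjusted p = 0.515), with an interval from −0.28 to 0.13. Rpsa, a small subunit protein also known as the laminin receptor, was at 4.72, 4.89, 4.92 and 4.66 untreated and 4.59, 5.00, 4.70 and 4.57 in doxycycline. It too overlapped (−0.09 ± 0.10, interval −0.32 to 0.15). Rpl18 had the smallest change, −0.06 ± 0.06, with an interval from −0.20 to 0.08. Rps27a, which encodes ubiquitin fused to a ribosomal protein, and Rpl34 gave −0.10 ± 0.09 and −0.11 ± 0.09. Under library totals all 6 of these passed.

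Rpl5, Rpl11, Rpl23 and Rpl26 are the members best known for control of p53 through MDM2 or the p53 mRNA. Rpl11 was at 4.82, 4.87, 4.90 and 4.87 log2 CPM untreated and 4.47, 4.78, 4.61 and 4.24 in doxycycline, and Rpl5 was at 8.77, 8.83, 8.81 and 8.68 and at 8.54, 8.68, 8.50 and 8.28. The Rpl11 groups did not overlap, while for Rpl5 doxycycline replicate 2 reached the lowest untreated library. Rpl11 fell by 0.34 ± 0.10 (adjusted p = 0.0149) and Rpl5 by 0.27 ± 0.08 (adjusted p = 0.0151). Rpl26 fell by 0.25 ± 0.08 (adjusted p = 0.0236), a call lost without any 1 of the first 3 untreated replicates. Rpl23 was at −0.09 ± 0.08 (adjusted p = 0.361).

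The stalk of the large subunit, which recruits elongation factors, is made of Rplp0, Rplp1 and Rplp2. Rplp0 fell by 0.28 ± 0.07 (adjusted p = 0.00669) and Rplp2 by 0.22 ± 0.07 (adjusted p = 0.0212). Rplp1 was at 8.33, 8.20, 8.55 and 8.20 log2 CPM untreated and 8.05, 8.44, 7.98 and 7.90 in doxycycline. Replicate 2 was higher in doxycycline than in 3 of the 4 untreated libraries, and the change of −0.23 ± 0.12 did not pass (adjusted p = 0.13). Rps19, the member most often mutated in Diamond-Blackfan anaemia, fell by 0.28 ± 0.09 (adjusted p = 0.0214), and Rps3, which also acts in DNA repair, by 0.26 ± 0.09 (adjusted p = 0.0247). The Rps19 and Rps3 calls were lost when some single libraries were left out (highest adjusted p = 0.0605 and 0.0694), as were those of 13 of the 56 members that fell. Rpl38, needed for translation of Hox mRNAs in mouse embryos, gave −0.16 ± 0.07, which did not pass (adjusted p = 0.0651) until the pair was a block (adjusted p = 0.025).

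Of the 8 paralogs looked for, 5 were measured: Rpl3l, Rpl7l1, Rpl22l1, Rpl36al and Rps27l. Rpl7l1, a relative of Rpl7, had the smallest adjusted p of all members. It was at 7.06, 6.98, 6.98 and 6.99 log2 CPM untreated and 6.63, 6.58, 6.61 and 6.60 in doxycycline, so both groups were tight and far apart. It fell by 0.39 ± 0.04 (adjusted p = 1.3e-05), beside 0.28 ± 0.07 for Rpl7. Rpl22l1, which can take the place of Rpl22 in the ribosome, was at 6.35, 6.37, 6.38 and 6.26 untreated and 6.01, 6.14, 5.81 and 5.74 in doxycycline. It fell by 0.41 ± 0.08 (adjusted p = 0.00182), and Rpl22 by 0.40 ± 0.09 (adjusted p = 0.00268).

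Rps27l, a p53 target, was between 6.43 and 6.60 untreated and between 6.15 and 6.36 in doxycycline, without overlap. It fell by 0.27 ± 0.06 (adjusted p = 0.00303), while Rps27 gave −0.14 ± 0.10 (adjusted p = 0.217, or 0.0197 with the pair as a block). Rpl36a fell by 0.44 ± 0.09 (adjusted p = 0.00207), and its paralog Rpl36al gave −0.17 ± 0.08 (adjusted p = 0.0921, or 0.0275 with the block). Differences between paralogs were not tested. Rpl3l, the muscle relative of Rpl3, was near the detection limit with 20, 18, 24 and 19 reads in untreated replicates 1 to 4 and 18, 7, 12 and 26 after doxycycline, and gave −0.34 ± 0.36. Rpl3 itself fell by 0.40 ± 0.08 (adjusted p = 0.00131).

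Members with and without a TOP start were set side by side, with no test. The 29 members with a C and pyrimidine run within 5 bases of an annotated start had a median log2 change of −0.29 in doxycycline, with 19 that fell, and the 32 without it −0.27, with 22 that fell. With the run exactly at the start the medians were −0.32 (13 members, 9 fell) and −0.27 (48 members, 32 fell). Of all genes tested 33.8% fell. The 7 members with TATAAA had a median of −0.40 against −0.27 for the 54 without it, the 6 with CACGTG −0.21 against −0.27 for 55, and the 24 with CCGGAAG −0.26 against −0.29 for 37. As printed above, Rpl28 and Rps6, among the largest falls, and Rpl38 and Rps27, which did not pass, all carry the run exactly at the annotated start.

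Other genes that make or serve ribosomes were counted from fixed lists. Of 14 chaperones and modifiers of ribosomal proteins, 11 fell (78.6%, against 33.8% of all genes) and none rose, with a median of −0.41. Grwd1, which escorts Rpl3, fell by 1.11 ± 0.08, beside 0.40 for Rpl3, and Heatr3, which escorts Rpl5 and Rpl11, by 0.83 ± 0.06, beside 0.27 and 0.34. Tsr2, which escorts Rps26, fell by 1.00 ± 0.11, and Rps26, named here for that reason after its value was seen, by 0.40 ± 0.09. Prmt3, which methylates Rps2, fell by 0.96 ± 0.06, beside 0.52 for Rps2. These pairs were chosen from the list for their known partners, and the differences within them were not tested. Pdcd2l, of the same list, was at 0.01 ± 0.06 (adjusted p = 0.883).

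Of 35 ribosome biogenesis factors, which process ribosomal RNA and assemble subunits, 34 fell (97.1%, against 33.8% of all genes), with a median of −0.86. Dkc1 and Nop58, of the guide RNA particles that modify ribosomal RNA, fell by 1.47 ± 0.05 and 1.19 ± 0.05, and Nop2, an rRNA methyltransferase, by 0.86 ± 0.04. The members' median of −0.28 lay closer to that of the 75 mitochondrial ribosomal protein genes, −0.26, of which 49 fell (65.3%) and 2 rose. Mrpl12, which also binds the mitochondrial RNA polymerase, fell by 0.68 ± 0.06 and Mrpl18 by 0.58 ± 0.04. These lists were chosen with results of these data known.

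Of 28 translation factors and other genes listed beforehand as TOP mRNAs, 20 fell (71.4%) and 3 rose, with a median of −0.28. Their start sequences were not examined here, and some of them may lack a TOP start. Hnrnpa1, a splicing factor, fell by 0.68 ± 0.07, Eef1d, a subunit of the elongation factor that reloads Eef1a, by 0.55 ± 0.05, and Eif3g, an initiation factor subunit, by 0.51 ± 0.05. Vim, an intermediate filament gene, rose by 1.57 ± 0.08. Of 26 genes of mTOR signalling and TOP translation control, 11 fell (42.3%) and 6 rose, with a median of −0.03. Of all genes tested 33.8% fell and 31.3% rose, so this list lay nearer to all genes than the TOP list did. Its genes named next were picked for small p. Larp1, which binds the TOP start, fell by 0.44 ± 0.05, and Cnbp, an RNA-binding protein linked to these mRNAs, by 0.63 ± 0.04. Pdcd4, an inhibitor of the initiation helicase, fell by 1.40 ± 0.10, and Sesn2, an amino acid sensor that restrains mTOR, rose by 0.83 ± 0.08. Of the 4 ribosomal protein genes outside the symbol rule, Gnb2l1, which encodes the ribosomal scaffold RACK1, fell by 0.24 ± 0.08 (adjusted p = 0.0246). Rps3a1 and Fau gave −0.50 ± 0.24 and 0.04 ± 0.12 and did not pass, although Rps3a1 passed with the pair as a block (adjusted p = 0.0118).

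The other comparison asked how Id2 altered these genes while MLL-AF9 stayed on. None of the 81 members passed in limma, where 0.0137% of all genes rose and 0% fell. At an unadjusted p under 0.05 there was 1 member of 81, Rpl3l, while 2.45% of all genes were under it. Limma with voom weights and the fit with the replicate number as a block also called no member. The median log2 change was −0.14, against −0.03 for all genes, and 80 of 81 were below 0 (55.3% of all genes). Control-GFP replicate 3 decided that sign. Without it the median was 0.32 (−0.01 for all genes), 79 of 81 were above 0 (48.6% of all genes), and still none passed (lowest adjusted p = 0.993), while 0.0206% of all genes did, 0.0137% that rose and 0.00687% that fell. Without replicate 3 of both groups the median was 0.24.

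The members took 4.17, 3.53 and 8.86% of reads in control-GFP replicates 1 to 3 and 4.37, 4.58 and 5.45% in Id2-GFP replicates 1 to 3. Control replicate 3 lay far above the other 5 libraries, while control replicates 1 and 2 lay below all Id2-GFP libraries. The means were 5.52 ± 2.91% (SD, n = 3) and 4.80 ± 0.573% (n = 3), and without control replicate 3 the control mean was 3.85 ± 0.451% (n = 2). Over all libraries the difference was smaller than the spread of the controls, and without control replicate 3 it had the opposite sign. That library was singled out by its values in these same genes, and leaving it out keeps 2 controls. The difference without it is therefore a description only and was not tested. Within pairs the median difference of the members was 0.06, 0.41 and −0.88 for replicates 1 to 3.

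**Figure D4:**
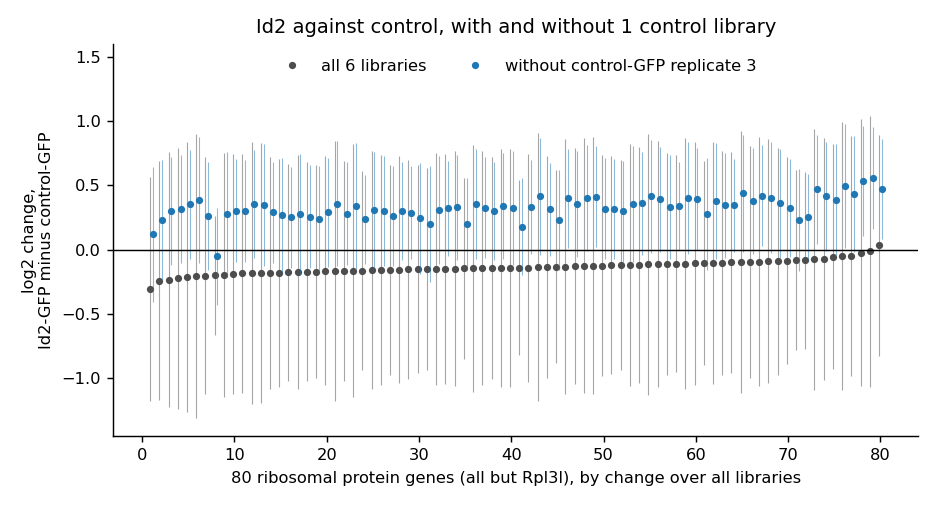
The vertical axis is the log2 change (Id2-GFP minus control-GFP) of 80 ribosomal protein genes, ordered by their change over all 6 libraries (dark) and shown again without control-GFP replicate 3 (blue), with 95% intervals from limma as bars. All dark points but that of Rplp1 lie below 0, with intervals that all hold 0, and nearly all blue points lie above 0, with 72 of the 80 intervals holding 0.

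Control replicate 3 was the highest of the 6 libraries for 80 of the 81 members, against 37.7% of all genes. It exceeded the mean of the other controls by a median of 1.41 log2 units over the members, and by 0.06 over all genes. The same excess was 0.72 for the mitochondrial ribosomal protein genes, above 0 in 75 of 75, then 0.76 for the TOP translation factors, 0.49 for ribosome biogenesis factors and −0.23 for the mTOR list. The median SD of a member among control libraries was 0.82 log2 units, against 0.18 among Id2-GFP libraries and 0.35 for all genes among controls. The median 95% interval of a member's change, Rpl3l aside, ran from −1.05 to 0.76 over all libraries and from −0.08 to 0.74 without that library. The median change seen after doxycycline, −0.28, lies inside the first of these intervals and outside the other. Each is made of the median lower and median upper end over single genes. The other rests on 2 controls, with a library left out for its values in these same genes. The experiments differ in days and were normalized separately, and their changes were not tested against each other.

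Rps6 shows the pattern. It was at 9.46, 9.30 and 10.78 log2 CPM in the controls and 9.51, 9.39 and 9.91 in the Id2-GFP libraries, with the third control highest and the other controls among the 3 lowest. Its change was −0.24 ± 0.40, and 0.23 ± 0.20 without that control. Rps24, with the fifth lowest change, was at 9.08, 8.78 and 10.54 and at 9.10, 9.17 and 9.45, and went from −0.22 ± 0.44 to 0.31 ± 0.18 in the same way. Rps21, at 7.98, 7.63 and 9.53 in controls and 8.21, 8.37 and 8.51 with Id2, had the largest change without control replicate 3, 0.56 ± 0.17, and was at −0.01 ± 0.45 with it. Rplp1, at 9.31, 8.99 and 10.47 and at 9.54, 9.68 and 9.64, was the 1 member above 0 over all libraries, at 0.03 ± 0.37. None of these passed (adjusted p = 0.998 over all libraries and 0.993 without the third control).

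Rpl3l and Rpl7l1 did not follow the other members. Rpl7l1 was at 6.90, 6.75 and 7.27 in controls and 6.97, 6.57 and 6.77 with Id2, so the excess of the third control was small, and its change was −0.20 ± 0.20, or −0.05 ± 0.16 without that control. Rpl3l had 30, 27 and 19 reads in control replicates 1 to 3 and 1, 7 and 6 in Id2-GFP replicates 1 to 3. All Id2-GFP libraries were below all controls, a separation that 3.77% of all genes showed in this direction. It was the 1 member whose groups did not overlap, and none lay wholly above the controls, as 3.18% of all genes did. The fitted change was −2.64 ± 0.71 and rests on very few reads (limma adjusted p = 0.998, or 0.157 with the replicate block). Rpl22l1 and Rps27l, the other low paralogs, gave −0.23 ± 0.43 and −0.31 ± 0.38, or 0.30 ± 0.18 and 0.12 ± 0.22 without control replicate 3.

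Levels of the members were compared per kilobase of exon, over the union of all annotated exons of a gene in GENCODE M21, within the Id2 table (RPKM). Rplp1 was the highest at 1711 ± 986 RPKM in controls and 1580 ± 79.3 with Id2 (SD, n = 3 each), followed by Rps15 at 1321 ± 871 and 1077 ± 132 and Rpl32 at 1280 ± 888 and 1026 ± 148. The last 2 do not differ beyond their spread. The lowest were Rpl3l at 1.07 ± 0.181 and 0.197 ± 0.138, Rpl7l1 at 36.4 ± 6.96 and 31.4 ± 4.34, and Rpl22l1 at 53.0 ± 37.0 and 39.2 ± 6.51. All 3 of the lowest are paralogs, and a long union of exons, as for Rps15a, lowers the value of a gene.

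The tables gave some members very different levels. The tables were normalized separately and share no sample, so a gap can hold the experiment, the processing or both, which cannot be told apart. In 23 members the mean log2 CPM was 2.97 to 5.81 units lower in the doxycycline table than in the Id2 table, which is 7.84-fold to 55.9-fold, and in the other 58 it was at most 1.79 units lower. Over the other genes in both tables, 2.56% had a gap above 2, against 28.4% of members. The 23 include Rpl28, Rps2, Rpl21 and Rps6, which are 4 of the 6 largest changes after doxycycline, and Rpsa and Rpl18, which are 2 of the 6 smallest.

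**Figure D5:**
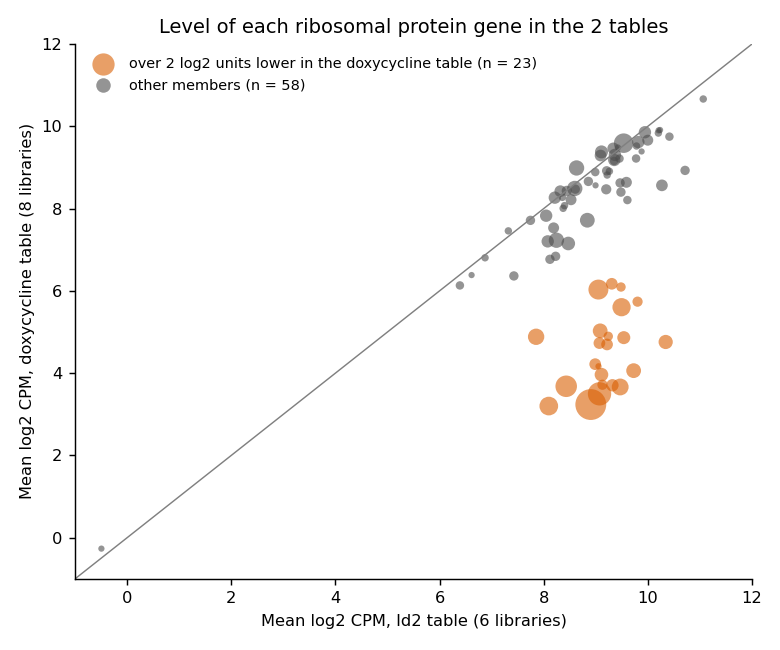
Each point is a ribosomal protein gene at its mean log2 CPM in the Id2 table (horizontal) and in the doxycycline table (vertical), with the diagonal for equal levels and point area rising with its number of annotated pseudogene copies. The 23 orange members lie 2.97 to 5.81 units below the diagonal, apart from the other 58.

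Ribosomal protein genes have many processed pseudogenes, copies whose reads can be hard to assign. Annotated pseudogenes with at least 95% identity over at least 80% of the coding sequence numbered 0 to 56 (median 9) for the 23 members and 0 to 21 (median 3) for the others. Rpl21 had 56, but Rps19, with a gap of 4.89, had none, and Rps12, with 21, had no gap (−0.05). Rows of ribosomal protein pseudogenes took 0.726 to 0.831% of reads in untreated cells and 0.470 to 0.662% in doxycycline, over 79 rows, and 0.593 to 1.49% over 169 rows in the Id2 table, with control replicate 3 the highest. How the gap arose was not tested. The comparison within the doxycycline table looked alike in both sets of members. Of the 23, 17 fell, with a median of −0.33, and of the other 58, 39 fell (67.2%), with a median of −0.27. Of all genes tested 33.8% fell.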

How the data were processed

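RNA was sequenced from 14 libraries. Per the submitters' processing notes, CASAVA 1.8.2, TopHat2, HTSeq and limma were used with the genome build mm10; which step each served, and whether counting used the strand, is not given in the sources used here. For each experiment the deposited values are on a log2 scale, as the numbers themselves show: log2 CPM of reads plus 0.5 over a scaled library size. Removing the offset gave whole reads for 100% of values within 0.01 read. Among 13419 doxycycline entries, 13 repeated the identifier of another, and the first entry was kept. The members were taken from rows in both tables. A ribosomal protein gene missing from either, for example through the authors' filter on low genes, is therefore not counted. Rpl24 was matched to GENCODE M21 by symbol, the other 80 members by identifier.

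Each comparison was fitted in its own table over all genes with limma 3.58.1 in R 4.3.3 (eBayes with a trend, two-sided, Benjamini-Hochberg adjustment, threshold 0.05). The fit was checked on simulated data that had the same extra spread for every gene, no pairs and no library that stood apart. That check does not cover the spread among the control-GFP libraries. Changes are log2 changes ± SE on the deposited scale. The replicate block used the pair tag or replicate number in the titles. Deviations of same-numbered libraries from their group means correlated across genes in every pair (from 0.45 to 0.55 for doxycycline pairs, from 0.47 to 0.58 for Id2 pairs), so the numbers were taken as pairs. Over the 81 members alone these correlations were −0.04, 0.40, 0.17 and 0.08 for doxycycline pairs and −0.39, 0.27 and −0.27 for Id2 pairs, which does not show pairing in every pair. Replicates differed by more than counting noise. Alternatives were other scalings, offsets, filters, variance models and left-out libraries. Pseudogene copies were found with blastn 2.17.0, and Python 3.11.15 was used for tables.

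The members and lists were chosen with earlier results of these data known. Named members are the 6 largest and 6 smallest changes of each comparison, paralog pairs, members with known roles and the 3 highest and lowest per length; of other lists, up to 4 genes with the smallest p. Rps26, Rps12, Rps15a and Rpl24 were named after their values were seen. Protein identity of paralogs was not run. Results of some genes are not reported here, and counts and medians over the lists include them.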

Additional observations from a re-analysis of the deposited data

Results flagged for a closer look

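In the doxycycline experiment 82 checks, nearly all of them of a named member in a group, looked for a library far from the other 3. Of these checks 3 marked one. Chance alone marks about 1 group in 20. Rpl22 in untreated replicate 4 was at 8.15 log2 CPM, with the other untreated libraries at 8.30 to 8.33. Rpl38 in untreated replicate 4 was at 7.75, with the others at 7.80 to 7.81. Rpl7l1 in untreated replicate 1 was at 7.06, with the others at 6.98 to 6.99. Groups of the Id2 experiment were too small for this check.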

How the results depend on the processing

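After doxycycline the members' median stayed below 0 and no member rose under every alternative run. Their median was −0.52 with library totals and −0.43 with quantile normalization. The count of falls was 54 with median-of-ratios factors, 56 with voom weights, 53 without a variance trend, 54 with an offset of 5 reads and 66 with the replicate block. Of all genes 4322, 4523, 4518, 4492 and 4828 fell in these settings, in the same order. When libraries or pairs were left out, the members' falls ranged from 28 to 71 and those of all genes from 3829 to 4517. There were 34 members that fell without replicate 1 of both groups and 28 without replicate 3 of both groups. With library totals the median of all genes was −0.27, with 2702 that rose and 6912 that fell, 3 of the 4 ribosomal protein genes outside the rule fell, 1 gene of the mTOR list rose, and none rose of the quality control and mitochondrial lists. With quantile normalization 2 genes outside the rule fell and 1 TOP translation factor rose. With the replicate block 2 genes outside the rule fell, and with libraries left out 0 to 1 did. For single named members, 727 of 799 values kept direction and call, 38 lost the call, 34 gained it and 0 changed sign as a call.

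Under Id2 the members' median ranged from −0.43 to 0.32 when libraries were left out, at 0.32 without control-GFP replicate 3 and 0.24 without replicate 3 of both groups. It was −0.01 with quantile normalization, and no setting called a member. Of all genes, 1 rose when only genes with a mean log2 CPM of at least 3 were tested, 16 rose and 19 fell with the replicate block, and 0 to 2 rose and 0 to 1 fell with libraries left out. The share of members with a TOP start was 21.3% at the annotated start and 47.5% within 5 bases of it. The cause of these shifts was not tested. There were 3 or 4 libraries a group, and some members had few reads, such as Rpl3l, which limits statements on small changes.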

Other observations

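Ribosome rescue genes, which act when ribosomes stall, were measured beside the members. Of 10 such genes 6 fell in doxycycline (60%) and 1 rose, with a median of −0.22. Of all genes tested 33.8% fell and 31.3% rose. Abce1, which splits ribosomes after termination, fell by 0.75 ± 0.05 (adjusted p = 1.54e-06), and Pelo and Hbs1l, the pair that frees stalled ribosomes, fell by 0.66 ± 0.05 and 0.39 ± 0.04. Tcf25, a subunit of the complex that marks stalled chains for decay, rose by 0.30 ± 0.05 (adjusted p = 0.000266). In the Id2 experiment none of the 10 passed in limma, with 0 also at an unadjusted p under 0.05.

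The identifier of the Rpl24 row in the doxycycline table belongs to Zbtb11 in GENCODE M21, so it is open to doubt which gene its values count. They were 8.56, 8.55, 8.57 and 8.53 log2 CPM in untreated replicates 1 to 4 and 8.43, 8.57, 8.41 and 8.15 in doxycycline, with a change of −0.17 ± 0.08 that did not pass (adjusted p = 0.0931, or 0.0451 with the pair as a block, where it did). All counts of members include it.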
